A study of Mus musculus with 2 samples.

Results

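The genes described here are 34 glutathione transferase, glutathione synthesis and NRF2-linked antioxidant genes of mouse liver, taken by name from a list and matched by Ensembl gene identifier among 43346 mouse gene identifiers. All 34 matched. They comprise 21 glutathione transferases (4 alpha, 7 mu, 2 pi and 3 theta class genes, 1 kappa and 1 omega gene, and 3 microsomal genes), 4 genes of glutathione synthesis and recycling, Nfe2l2 and Keap1, and 7 antioxidant enzyme genes. RNA over 200 nucleotides long was sequenced as total RNA from whole liver, taken at 8 weeks of age from adults of the C57BL/6J strain, in 2 libraries called replicate 1 and replicate 2. Nothing distinguishes the 2 in treatment or genotype, so they form 1 group and there was no comparison between conditions. Each library has its own biosample, but both carry 1 donor label, the sex was not collected, and nothing states that separate animals were used. The source of the spread between the libraries was not tested. Some marker lists of other tissues and of liver also differed between them, as given below. With 1 library on each side of a ratio no test was made, and every difference below describes these libraries.

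Glutathione is the main small thiol of the cell, and the liver makes and exports much of it. Glutathione transferases couple it to electrophiles such as drug metabolites and lipid peroxidation products, and they fall into soluble classes and membrane-bound microsomal enzymes. NRF2, the product of Nfe2l2, is a transcription factor that KEAP1 marks for degradation in unstressed cells. When electrophiles or oxidants modify KEAP1, NRF2 accumulates, pairs with small MAF proteins and binds antioxidant response elements beside many genes of glutathione metabolism.

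Levels are given as endogenous TPM, which is transcript abundance (TPM) rescaled without the spike-in RNAs and corrected for transcript length, or in expected counts, which are estimated fragments per gene. The libraries held 83816487 endogenous counts in replicate 1 and 71068191 in replicate 2. Protein-coding genes took 12.2% of endogenous TPM in replicate 1 and 16.4% in replicate 2, and TPM of most genes was lower in replicate 1. Over the 7702 genes past the filters, the median log2 TPM ratio was -0.49, and the median ratio of TMM-scaled CPM (counts per library size, with a factor for library composition) was 0.04. All 10 hepatocyte markers were detected, with summed levels of 12063 TPM in replicate 1 and 19537 TPM in replicate 2, led by Alb, Trf and Apoa1, which encode plasma proteins. Their median log2 ratio of TMM-scaled CPM, replicate 1 over replicate 2, was only -0.10. In bulk tissue, fewer cells of a type and less RNA per cell cannot be told apart.

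Of the 34 members, 31 reached 1 endogenous TPM in both libraries, where 16.0% of all genes and 31.0% of protein-coding genes did. The same 31 passed the filters for ratios, a mean of 1 TPM and a mean of 10 counts. The exceptions were Gstp2, Mgst2 and G6pdx. Together the 34 genes held 2191 TPM in replicate 1 and 2505 TPM in replicate 2. Mgst1 alone supplied 57.1% of that sum in replicate 1 and 46.0% in replicate 2. Mgst1, Gsta3 and Sod1 took the first 3 places by TPM in both libraries, and further down the order of some neighbours changed between them. Across the 34 genes the TPM values of the libraries had a Spearman correlation of 0.957, a description over genes that share the same libraries. The coefficient of variation between the libraries, estimated by edgeR over 14703 genes, was 0.237.

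**Figure D1:**
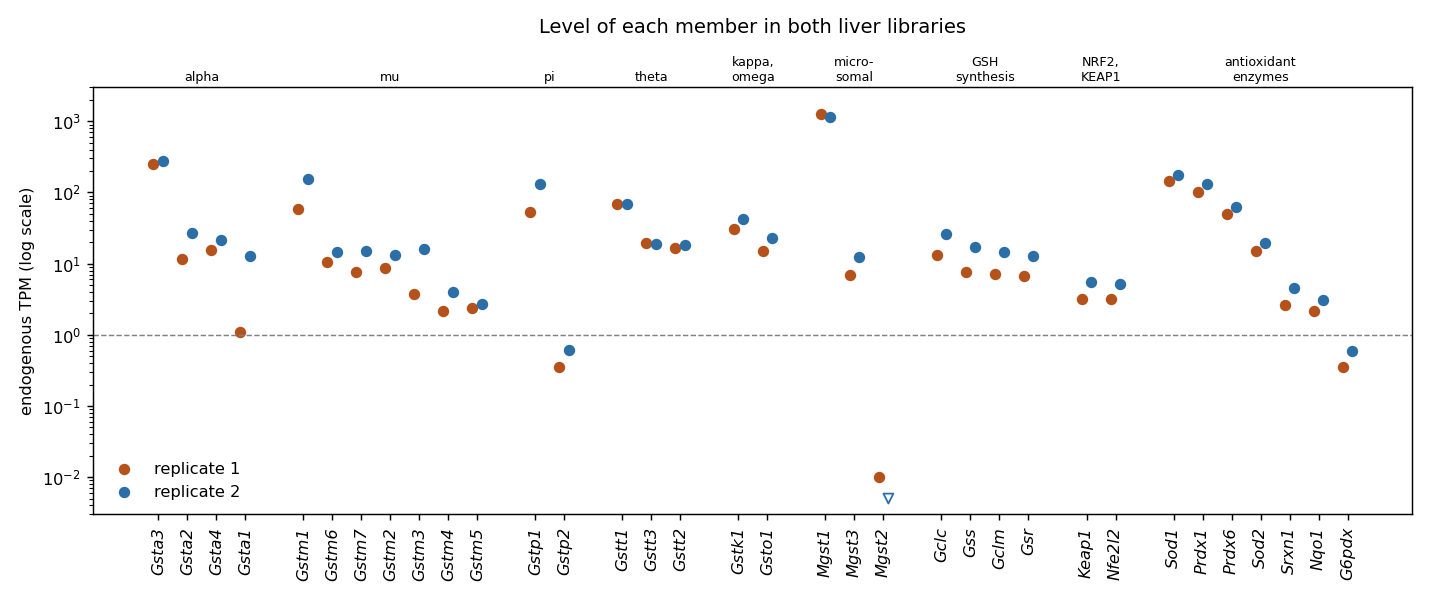
Endogenous TPM (vertical axis, log scale) of the 34 genes, grouped by class and ordered within it by mean level; orange points are replicate 1, blue points replicate 2, the open triangle marks a value listed at 0 and the dashed line 1 TPM. Mgst1 stands highest, at 1252 TPM in replicate 1 and 1153 TPM in replicate 2, while Gstp2, Mgst2 and G6pdx lie under the line.

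By summed TPM the microsomal class was first in both libraries, with 1258 TPM in replicate 1 and 1165 TPM in replicate 2 (1212 ± 66.0, SD, n = 2). The alpha class was second, at 279.8 TPM in replicate 1 and 337 TPM in replicate 2. The order of the next classes differed between libraries. Theta class genes summed to 104 TPM in replicate 1 and 106 TPM in replicate 2. Mu class genes summed to 93.3 TPM in replicate 1 and 220.1 TPM in replicate 2. Theta was thus above mu in replicate 1 and below it in replicate 2. Pi class genes summed to 53.7 TPM in replicate 1 and 132 TPM in replicate 2, and the kappa and omega genes to 45.5 TPM in replicate 1 and 64.9 TPM in replicate 2. The mean level of the theta class (105 ± 1.15 TPM, SD, n = 2) lay inside the spread of the mu class (157 ± 89.7 TPM) and of the pi class (93.1 ± 55.7 TPM), so the place of theta could not be set. Mu was above pi in both libraries.

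The share of a class depended on whether length was taken into account. The microsomal class held 68.6% of all transferase TPM in replicate 1 and 57.5% in replicate 2, but 52.5% of transferase counts in replicate 1 and 44.7% in replicate 2. The effective length of Mgst1 was 481 nucleotides for replicate 1 and 526 for replicate 2, and that of Mgst3 was 886 for replicate 1 and 896 for replicate 2. The alpha class took 15.2% of transferase TPM in replicate 1 and 16.6% in replicate 2, against 26.0% of counts in replicate 1 and 24.7% in replicate 2. On both scales the microsomal class remained first and the alpha class second in both libraries.

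**Figure D2:**
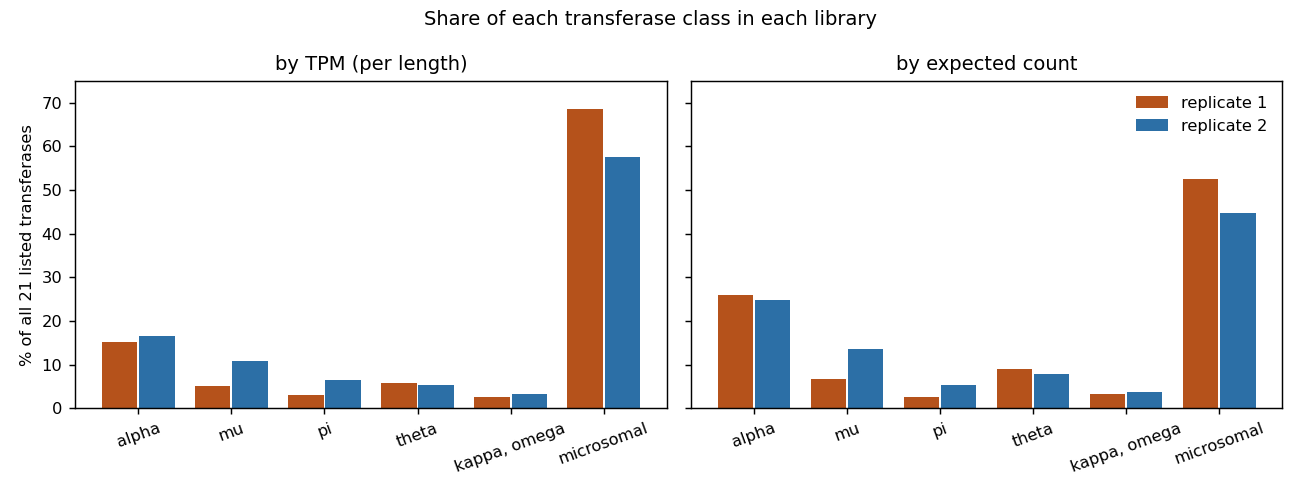
Share of each of the 6 transferase classes in the sum over the 21 listed transferases (vertical axis, percent), by TPM on the left and by expected count on the right; orange bars are replicate 1 and blue bars replicate 2. The microsomal class leads on both scales, and the mu and pi bars are higher in replicate 2.

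Ratios between libraries are log2 ratios of TMM-scaled CPM plus 0.5, replicate 1 over replicate 2. Over 2-fold apart were 2 of the 31 members, beside 2.36% of the 7702 genes past the filters. None was over 2-fold higher in replicate 1, where 1.57% of genes were, and both, Gsta1 and Gstm3, were higher in replicate 2, where 0.792% of genes were. Both had a mean under 10 TPM, and among the 21 members with a mean of 10 TPM or more 0 were over 2-fold apart. By the ratio of TPM, in which all genes were shifted as given above, 0 members were over 2-fold higher in replicate 1 and 7 in replicate 2, beside 87 genes in replicate 1 and 531 in replicate 2. Spike-in scaling, which placed the median of all genes at -0.27, gave 5 members, all higher in replicate 2, beside 82 genes higher in replicate 1 and 172 in replicate 2. Of the 31, 14 were higher in replicate 1 and 17 in replicate 2, with a median of -0.09 against 0.04 for all genes. Relative to the median of all genes, 26 of the 31 kept their direction under 8 scalings and settings, 9 of them higher in replicate 1 and 17 higher in replicate 2. Scalings by TMM, DESeq2 size factors, total counts and spike-ins differ almost only by a constant, which subtracting that median removes. Another pseudocount can hardly turn a direction, and the TPM ratio differs beyond a constant almost only by effective length. The agreement of all these settings is thus largely by construction and shows little of stability. The 5 whose direction turned were Gsta4, Gstk1, Gstm6, Nqo1 and Prdx1, each only under the GC and length correction.

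**Figure D3:**
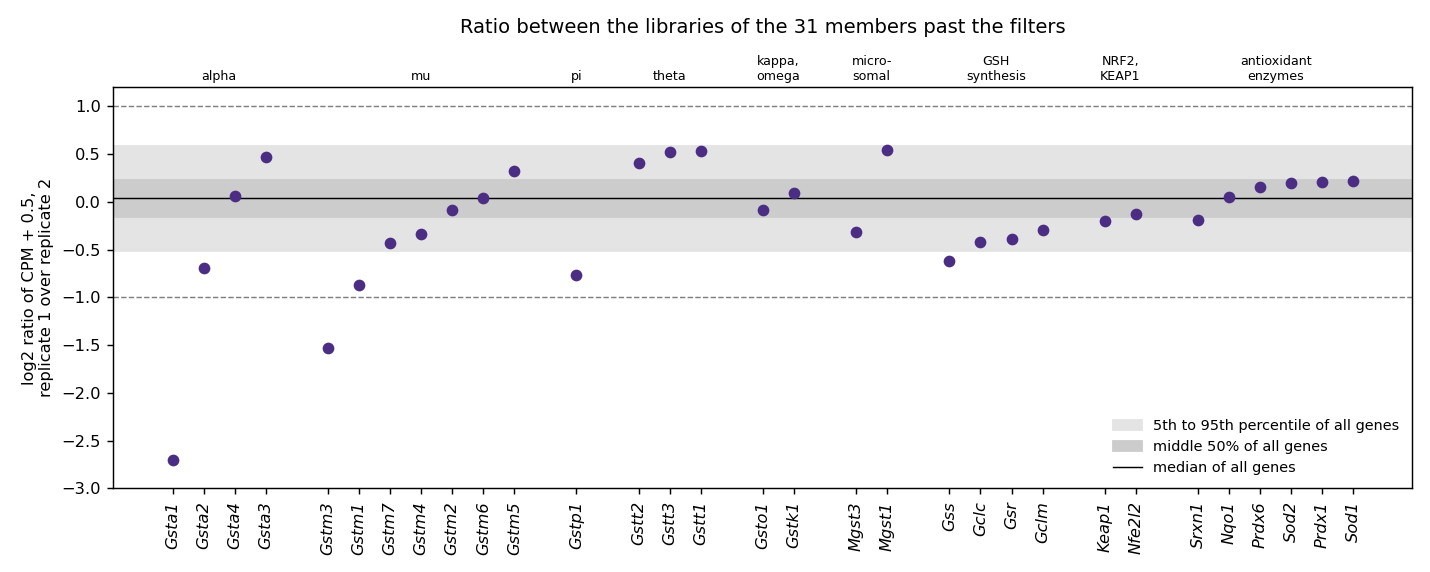
Log2 ratio of TMM-scaled CPM plus 0.5, replicate 1 over replicate 2 (vertical axis), of the 31 members past the filters, by class; the grey bands hold the middle 50% and the 5th to 95th percentile of all 7702 genes and the dashed lines mark 2-fold. Gsta1 and Gstm3 lie under -1, the theta genes sit together near the upper edge of the wide band, and all 4 synthesis and recycling genes lie under 0.

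Some marker lists of other tissues and of hepatocyte zones also differed between the libraries. Of 10 adrenal cortex markers, 9 had more counts in replicate 2, with 7.16 TPM summed in replicate 1 and 25.4 TPM in replicate 2. The exception by counts, Mrap, an accessory protein of melanocortin receptors, supplied 6.28 TPM in replicate 1 and 9.32 TPM in replicate 2. By TMM-scaled CPM all 10 were higher in replicate 2, Mrap only slightly (log2 ratio -0.03). Star, the mitochondrial cholesterol carrier of steroid-making cells, had 48 counts in replicate 1 and 2021 in replicate 2, and Cyp11a1, Nr5a1, Cyp11b2 and Mc2r had 0 counts in replicate 1. Of 14 pancreatic acinar markers, 14 were over 2-fold higher in replicate 1, with 174 TPM summed in replicate 1 and 55.2 TPM in replicate 2. The 10 skeletal muscle markers summed to 2793 counts in replicate 1 and 18 in replicate 2, and 4 of them were at 0 in replicate 2. Of 8 erythroid markers, 5 passed the filters, all higher in replicate 2 (median log2 ratio -0.49). The other 3, below the filters, had more CPM in replicate 1. The 12 pericentral hepatocyte genes past the filters were all higher in replicate 1 (median log2 ratio 0.67), and 10 of 15 periportal genes were higher in replicate 2 (median -0.34). Of 15 genes known to be higher in female liver, 14 were higher in replicate 1 (median 0.99). Of the 15, 7 were over 2-fold higher in replicate 1 and 0 in replicate 2. The widest gap was in Cyp3a41a, with 123726 counts in replicate 1 and 431 in replicate 2 (log2 ratio 7.96). Of the 8 genes past the filters known to be higher in male liver, 5 were higher in replicate 1 too (median 0.73). The part of these differences in the ratios of the 34 genes was not tested.

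The microsomal enzymes sit in membranes of the endoplasmic reticulum and mitochondria. Mgst1 (ENSMUSG00000008540.7, mm10 chr6:138140316-138156755, plus strand), which has transferase and peroxidase activity, had 1252 TPM in replicate 1 and 1153 TPM in replicate 2 (1202 ± 69.9, SD, n = 2), from 189718 counts in replicate 1 and 122054 in replicate 2. It ranked number 12 among protein-coding genes by mean TPM. Its log2 ratio was 0.55 by TMM-scaled CPM and 0.12 by TPM, and on the TPM scale it lay 0.61 above the median of all genes. Mgst3, which acts on lipid hydroperoxides, had 6.82 TPM in replicate 1 and 12.4 TPM in replicate 2, a log2 ratio of -0.32. Mgst1 was thus 184 times Mgst3 by TPM in replicate 1 and 92.8 times in replicate 2. Mgst2, which can make leukotriene C4, had 2 counts in each library (exact Poisson 95% interval 0.242 to 7.22 counts, counting error only), listed as 0.01 TPM in replicate 1 and 0 in replicate 2.

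Alpha class enzymes are the classical soluble transferases of hepatocytes and also reduce organic hydroperoxides. Gsta3 (ENSMUSG00000025934.11, chr1:21240589-21265661, plus strand), which in mouse conjugates aflatoxin epoxide, led the class with 251.8 TPM in replicate 1 and 275 TPM in replicate 2. That was 90.0% of alpha class TPM in replicate 1 and 81.7% in replicate 2. Gsta3 had 88901 counts in replicate 1 and 60400 in replicate 2, with a log2 ratio of 0.47 by CPM and -0.13 by TPM, so that its direction turned with the scale, although relative to the median of all genes it was higher in replicate 1 on both. Gsta4, which conjugates the lipid peroxidation product 4-hydroxynonenal, had 15.4 TPM in replicate 1 and 21.5 TPM in replicate 2 (log2 ratio 0.06).

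Gsta2 (ENSMUSG00000057933.6, chr9:78331018-78355788, minus strand) had 11.5 TPM in replicate 1 and 27.2 TPM in replicate 2, with a log2 ratio of -0.69. Gsta1 (ENSMUSG00000074183.3, chr9:78230656-78242684, plus strand) lies in the same cluster and had 229 counts in replicate 1 and 1614 in replicate 2. Its level was 1.09 TPM in replicate 1 and 12.9 TPM in replicate 2, and its log2 ratio of -2.71 was the lowest of the 31 members, a 6.53-fold higher CPM plus 0.5 in replicate 2. The absolute ratio exceeded that of 99.6% of the genes past the filters. Gsta2 was 10.5 times Gsta1 by TPM in replicate 1 and 2.12 times in replicate 2. Among 1686 genes with a mean of 10 TPM or more, the 5 nearest to Gsta1 in log2 ratio were Serpina1e (-2.52), Gm24497 (-3.33), Csad (-3.39), Neat1 (-1.57) and Etnppl (-1.35), a description over 2 libraries. Gsta1 itself, at a mean of 6.98 TPM, was under this cut. Only 8 of the 1686 were over 2-fold higher in replicate 2, so nearest does not mean alike. Neat1 lay 1.13 and Etnppl 1.36 log2 units from Gsta1. As given above, 9 of 10 adrenal cortex markers also had more counts in replicate 2, and the part of adrenal RNA in the Gsta1 value was not tested.

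Gsta1 and Gsta2 are near copies, so their reads had to be divided by the authors' quantification. Their coding sequences were identical at 653 of 669 aligned bases (97.6%), while other alpha pairs fell as low as 65.5%. The posterior SD of the Gsta1 count, the authors' estimate of uncertainty from dividing reads, was 1.43% of the count in replicate 1 and 0.441% in replicate 2. Shown are coding bases 373 to 492 of both, from GENCODE M21 transcripts and counted from the A of the start codon, the 120-base window with most differences, and capitals mark the 5 bases that differ.
Gsta1: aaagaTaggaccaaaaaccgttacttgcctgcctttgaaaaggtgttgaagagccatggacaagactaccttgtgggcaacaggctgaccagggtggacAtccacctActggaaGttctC
Gsta2: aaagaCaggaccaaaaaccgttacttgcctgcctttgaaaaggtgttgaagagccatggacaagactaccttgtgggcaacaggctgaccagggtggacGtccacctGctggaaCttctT

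All 7 mu class genes lie on chromosome 3 between positions 107895821 and 108044894, and 6 of them are on the minus strand, with Gstm5 on the plus strand. Mu enzymes conjugate epoxides and quinones. Gstm1 (ENSMUSG00000058135.8, chr3:108012255-108017973) led with 58.3 TPM in replicate 1 and 155 TPM in replicate 2, from 14622 counts in replicate 1 and 25111 in replicate 2. It held 62.4% of mu class TPM in replicate 1 and 70.2% in replicate 2, and its log2 ratio was -0.87. Gstm1 was thus the leading mu gene in both libraries, with the higher value in replicate 2.

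Gstm3 (ENSMUSG00000004038.9, chr3:107963696-107969283) had 1294 counts in replicate 1 and 3597 in replicate 2, or 3.73 TPM in replicate 1 and 16.1 TPM in replicate 2. Its log2 ratio was -1.54, which is 2.90-fold higher in replicate 2, beyond that of 98.9% of genes in size. Its neighbours in the cluster differed less: Gstm2 had 8.63 TPM in replicate 1 and 13.3 TPM in replicate 2 (log2 ratio -0.08), and Gstm6 had 10.5 TPM in replicate 1 and 14.6 TPM in replicate 2 (log2 ratio 0.04). Gstm7 had 7.63 TPM in replicate 1 and 14.9 TPM in replicate 2, a log2 ratio of -0.43. Lowest in the cluster were the genes at its 2 ends. Gstm4 had 2.17 TPM in replicate 1 and 3.99 TPM in replicate 2 (log2 ratio -0.34), and Gstm5 had 2.40 TPM in replicate 1 and 2.69 TPM in replicate 2 (log2 ratio 0.33). Of the 7 genes, 2 were higher in replicate 1 and 5 in replicate 2, and the median ratio was -0.34.

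**Figure D4:**
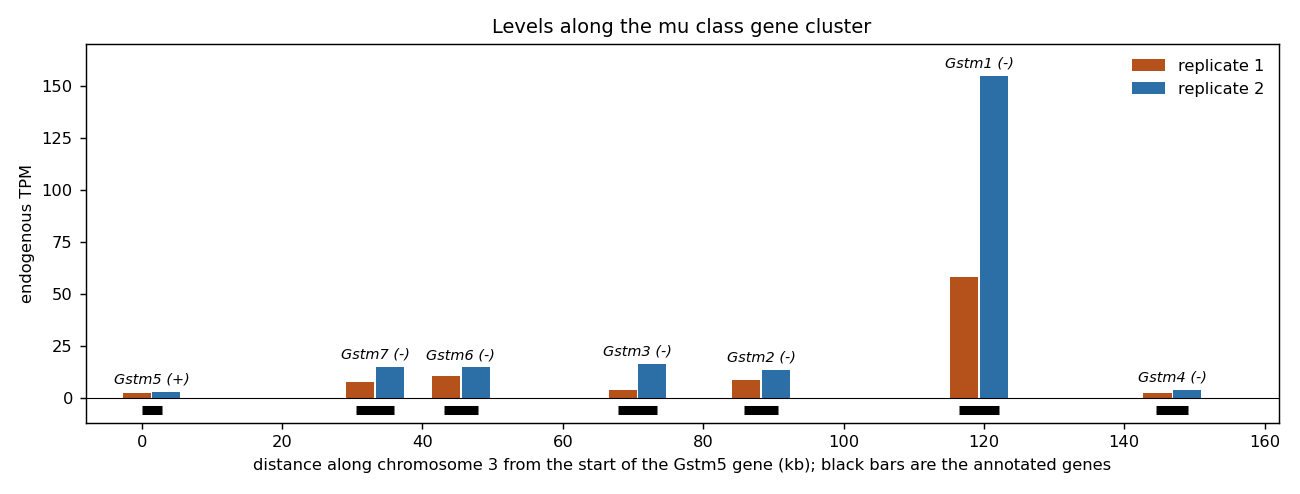
Endogenous TPM (vertical axis, linear) of the 7 mu class genes along their cluster on chromosome 3 (horizontal axis, kb from the start of Gstm5); orange bars are replicate 1, blue bars replicate 2, black bars the gene bodies, and the sign gives the strand. Gstm1 reaches 58.3 TPM in replicate 1 and 155 TPM in replicate 2, and the genes at both ends of the cluster are lowest on average.

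Coding identity among the 21 mu pairs ranged from 68.0% to 89.4% (median 82.3%), lower than between Gsta1 and Gsta2, and the posterior SD of the Gstm3 count was 0.182% in replicate 1 and 0.114% in replicate 2. The leading mu gene Gstm1 and Gstm3, the mu gene with the most extreme ratio, were the closest pair, identical at 585 of 654 coding bases. Coding bases 238 to 357 of both, from GENCODE M21, are the 120-base window with most differences, and capitals mark 22 of the 69 bases that differ.
Gstm1: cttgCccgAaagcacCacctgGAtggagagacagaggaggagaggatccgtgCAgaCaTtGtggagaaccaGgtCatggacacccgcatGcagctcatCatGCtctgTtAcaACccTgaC
Gstm3: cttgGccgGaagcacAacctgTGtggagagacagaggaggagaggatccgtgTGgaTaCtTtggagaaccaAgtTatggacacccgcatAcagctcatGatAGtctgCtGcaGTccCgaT

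The pi class is 2 adjacent genes on the minus strand of chromosome 19 whose enzymes also bind signalling kinases. Gstp1 (ENSMUSG00000060803.5, chr19:4035407-4037985) had 53.4 TPM in replicate 1 and 132 TPM in replicate 2, from 9183 counts in replicate 1 and 14750.1 in replicate 2. Gstp2 (ENSMUSG00000038155.10, chr19:4040285-4046023) had 0.351 TPM in replicate 1 and 0.613 TPM in replicate 2, from 62.6 counts in replicate 1 and 70.3 in replicate 2. Gstp1 thus supplied 99.3% of the class TPM in replicate 1 and 99.5% in replicate 2, 152 times Gstp2 by TPM in replicate 1 and 215 times in replicate 2. The log2 ratio of Gstp1 was -0.77, higher in replicate 2. Their coding sequences matched at 618 of 630 bases (98.1%), and the posterior SD of the Gstp2 count was 6.07% in replicate 1 and 6.13% in replicate 2, so its low level carries some uncertainty from shared reads. The first 120 coding bases, from GENCODE M21, hold 6 of the 12 differences, shown in capitals.
Gstp1: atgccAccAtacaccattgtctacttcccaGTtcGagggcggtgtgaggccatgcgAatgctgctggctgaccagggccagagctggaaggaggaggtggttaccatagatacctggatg
Gstp2: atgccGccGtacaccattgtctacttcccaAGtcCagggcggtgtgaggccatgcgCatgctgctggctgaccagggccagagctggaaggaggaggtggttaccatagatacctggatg

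The pi promoters differed more than their coding parts, at 78.1% identity over 250 upstream bases. Both held the letters TGAGNNNGC, a form of the antioxidant response element core, in a copy that overlaps an AP-1 motif TGANTCA. These RefSeq sequences (GRCm38.p6, the assembly named mm10 in the files) are given because the 2 genes share the motif and differ in level as given above; capitals mark matches to TGAGNNNGC on either strand. They are Gstp1 at chr19:4037913-4038162 and Gstp2 at chr19:4042222-4042471, both read on the minus strand. The shared copy starts 74 bases before the RefSeq start in Gstp1 and 89 in Gstp2. By the GENCODE coordinates given above, the Gstp2 window lies inside the Gstp2 gene and the Gstp1 window partly inside Gstp1. The windows are thus upstream of the RefSeq starts, but not wholly upstream of the GENCODE gene models.
Gstp1: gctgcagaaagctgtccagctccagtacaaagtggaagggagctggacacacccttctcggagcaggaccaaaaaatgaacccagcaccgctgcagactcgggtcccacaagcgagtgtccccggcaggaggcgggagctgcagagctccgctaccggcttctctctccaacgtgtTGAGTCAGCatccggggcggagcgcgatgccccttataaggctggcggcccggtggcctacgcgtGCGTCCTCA
Gstp2: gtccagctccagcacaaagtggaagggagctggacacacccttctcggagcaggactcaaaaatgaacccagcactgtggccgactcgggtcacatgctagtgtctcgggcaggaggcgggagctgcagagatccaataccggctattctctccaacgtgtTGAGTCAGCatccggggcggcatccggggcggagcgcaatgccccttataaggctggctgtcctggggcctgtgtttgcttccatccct

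Theta class enzymes, which act on small halogenated compounds and sulfate esters, had the smallest SD of summed endogenous TPM among the transferase classes. By summed counts this did not hold, with an SD of 7855 for theta and 573 for kappa and omega. Gstt1 (ENSMUSG00000001663.6, chr10:75783813-75798584) had 68.0 TPM in replicate 1 and 68.8 TPM in replicate 2. Gstt3 (chr10:75774115-75781414) had 19.7 TPM in replicate 1 and 18.9 TPM in replicate 2, and Gstt2 (chr10:75831114-75837424) had 16.8 TPM in replicate 1 and 18.5 TPM in replicate 2. The 3 lie close together on the minus strand of chromosome 10. By CPM their log2 ratios were 0.53 for Gstt1, 0.53 for Gstt3 and 0.41 for Gstt2, all higher in replicate 1, while by TPM the class median was -0.016. Relative to the median of all genes, the class median stayed between 0.48 and 0.50 under the 7 settings tried. The count scalings among them are close by construction once that median is subtracted. The TPM ratio, at 0.48, differs from them beyond a constant almost only by effective length, so it too is largely bound in this way. The GC and length correction gave 0.50. Gstt1 was 3.46 times Gstt3 by TPM in replicate 1 and 3.65 times in replicate 2. Coding identity among theta pairs ranged from 60.3% to 75.1%.

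The kappa enzyme Gstk1, found in mitochondria and peroxisomes, had 30.6 TPM in replicate 1 and 41.8 TPM in replicate 2 (log2 ratio 0.09). The omega enzyme Gsto1, which has thioltransferase and dehydroascorbate reductase activity, had 14.8 TPM in replicate 1 and 23.1 TPM in replicate 2 (log2 ratio -0.09). Both ratios lay within the middle 50% of all genes. Of 9 further transferase genes listed beside the members, 7 matched and 2 passed the filters. Gstz1, the maleylacetoacetate isomerase of tyrosine breakdown, had 89.2 TPM in replicate 1 and 95.9 TPM in replicate 2 (log2 ratio 0.44), between the levels of Gstt1 and Gsta3. The pi-like gene Gstp3 had 2.03 TPM in replicate 1 and 3.16 TPM in replicate 2, above Gstp2.

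Glutathione is made in a pair of steps, by glutamate-cysteine ligase and glutathione synthetase. Gclc, the catalytic subunit of the ligase (chr9:77754535-77794485), had 13.2 TPM in replicate 1 and 26.0 TPM in replicate 2. Gclm, the modifier subunit (chr3:122245557-122270732), had 7.18 TPM in replicate 1 and 14.5 TPM in replicate 2. The ratio of the subunits was therefore close in the libraries, with Gclc at 1.84 times Gclm by TPM in replicate 1 and 1.79 times in replicate 2. Gss, the synthetase (chr2:155563181-155592810), had 7.58 TPM in replicate 1 and 16.9 TPM in replicate 2. Gsr, the reductase that regenerates glutathione from its oxidised form (chr8:33652523-33698163), had 6.70 TPM in replicate 1 and 12.8 TPM in replicate 2. The 4 log2 ratios by CPM were -0.42 for Gclc, -0.30 for Gclm, -0.62 for Gss and -0.39 for Gsr. All 4 were higher in replicate 2 under each setting tried, with a class median of -0.41 by CPM, and none was 2-fold apart by CPM.

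Nfe2l2 and Keap1 were low and near each other. Nfe2l2 (ENSMUSG00000015839.6, chr2:75675513-75704641, minus strand) had 3.22 TPM in replicate 1 and 5.12 TPM in replicate 2. Keap1 (ENSMUSG00000003308.10, chr9:21229730-21239361, minus strand) had 3.22 TPM in replicate 1 and 5.60 TPM in replicate 2. Their log2 ratios by CPM were -0.13 for Nfe2l2 and -0.20 for Keap1, inside the 5th to 95th percentile of all genes. Of 14 other genes that regulate NRF2 or share its binding partners, 11 passed the filters, 4 higher in replicate 1 and 7 in replicate 2, with a median of -0.01. Led by Park7 and Sqstm1, they included 1 gene over 2-fold apart. This was Syvn1, a ubiquitin ligase of the endoplasmic reticulum, with 660 counts in replicate 1 and 1305 in replicate 2 (log2 ratio -1.03). Sqstm1, the autophagy receptor that binds KEAP1, had 27.5 TPM in replicate 1 and 50.1 TPM in replicate 2, above both Nfe2l2 and Keap1.

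Among the antioxidant enzymes, Sod1, the copper-zinc superoxide dismutase, was highest at 144 TPM in replicate 1 and 177 TPM in replicate 2. Sod2, the mitochondrial manganese enzyme, had 15.1 TPM in replicate 1 and 19.4 TPM in replicate 2. By TPM Sod1 was 9.50 times Sod2 in replicate 1 and 9.16 times in replicate 2, but by counts only 1.14 times in replicate 1 and 1.12 times in replicate 2, the Sod2 gene model being 3824 nucleotides long and that of Sod1 646. Prdx1, a peroxiredoxin that reduces peroxides through thioredoxin, had 101 TPM in replicate 1 and 131 TPM in replicate 2, and Prdx6, which uses glutathione, had 50.1 TPM in replicate 1 and 62.2 TPM in replicate 2. These 4 enzymes lay within the 5th to 95th percentile of all genes by CPM, with log2 ratios of 0.22 for Sod1, 0.20 for Sod2, 0.20 for Prdx1 and 0.16 for Prdx6.

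The other 3 genes of this group were lower. Srxn1, the sulfiredoxin that repairs overoxidised peroxiredoxins, had 2.61 TPM in replicate 1 and 4.61 TPM in replicate 2 (log2 ratio -0.19). Nqo1, the quinone reductase often used to read out NRF2 activity, had 2.19 TPM in replicate 1 and 3.09 TPM in replicate 2 (log2 ratio 0.05). G6pdx, which makes NADPH in the pentose phosphate pathway, had 0.351 TPM in replicate 1 and 0.593 TPM in replicate 2, with 274 counts in each library. Prdx1 exceeded Srxn1 by 38.8 times by TPM in replicate 1 and 28.4 times in replicate 2. Thus Nqo1 and Srxn1 passed the filters at levels near those of Nfe2l2 and Keap1, and G6pdx did not pass.

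Of 22 other genes known as NRF2 targets, 17 passed the filters, 6 higher in replicate 1 and 11 in replicate 2, with a median ratio of -0.14 beside 0.04 for all genes. The ferritin light chain gene Ftl1, which has related copies that can share its reads, led with 346 TPM in replicate 1 and 747 TPM in replicate 2, followed by Fth1 and by the bile canalicular exporter Abcc2 at 53.2 TPM in replicate 1 and 88.7 TPM in replicate 2. Osgin1, a stress-inducible growth inhibitor gene, was the only one over 2-fold apart among the 17, with 604 counts in replicate 1 and 1789 in replicate 2 (log2 ratio -1.59). Of 22 genes of glutathione use and breakdown, 13 passed and none was 2-fold apart. Gpx1, the main glutathione peroxidase of liver, had 582 TPM in replicate 1 and 769 TPM in replicate 2, and so stood between Mgst1 and Gsta3. Of 16 further superoxide and peroxide enzymes, 14 passed and none was 2-fold apart, with catalase (Cat) at 197 TPM in replicate 1 and 278 TPM in replicate 2.

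Transcript tables showed which isoform carried each member. Of the 31 members past the filters, 10 had 1 annotated transcript and 21 had several. The leading transcript was the same in both libraries for 20 of the 21, and its median share of the gene's TPM was 80.6% in replicate 1 and 78.5% in replicate 2. The exception was Prdx6. Its transcript Prdx6-208, annotated as a target of nonsense-mediated decay, took 50.6% in replicate 1 and 36.4% in replicate 2, and the coding transcript Prdx6-202 took 34.1% in replicate 1 and 43.8% in replicate 2. By counts Prdx6-202 led in both libraries, with 51.8% in replicate 1 and 62.9% in replicate 2, so the order of these transcripts turned with the length scaling.

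For Gsta1 the coding transcript Gsta1-201 took 100% in replicate 1 and 73.3% in replicate 2. The remainder in replicate 2 was Gsta1-202, a retained-intron transcript with 0 counts in replicate 1 and 333 in replicate 2. The coding transcript alone had 229 counts in replicate 1 and 1280.2 in replicate 2, so it too was higher in replicate 2. Mgst1 was divided among several coding transcripts, of which Mgst1-204 took 53.7% in replicate 1 and 55.0% in replicate 2 and Mgst1-207 took 28.6% in replicate 1 and 16.6% in replicate 2. Keap1 was split between coding transcripts Keap1-201, with 54.5% in replicate 1 and 48.1% in replicate 2, and Keap1-205, with 33.0% in replicate 1 and 36.4% in replicate 2. For Nfe2l2, the coding transcript Nfe2l2-201 took 80.6% in replicate 1 and 81.8% in replicate 2. Gstm1 kept its proportions: Gstm1-201 held 56.7% in replicate 1 and 57.0% in replicate 2.

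**Figure D5:**
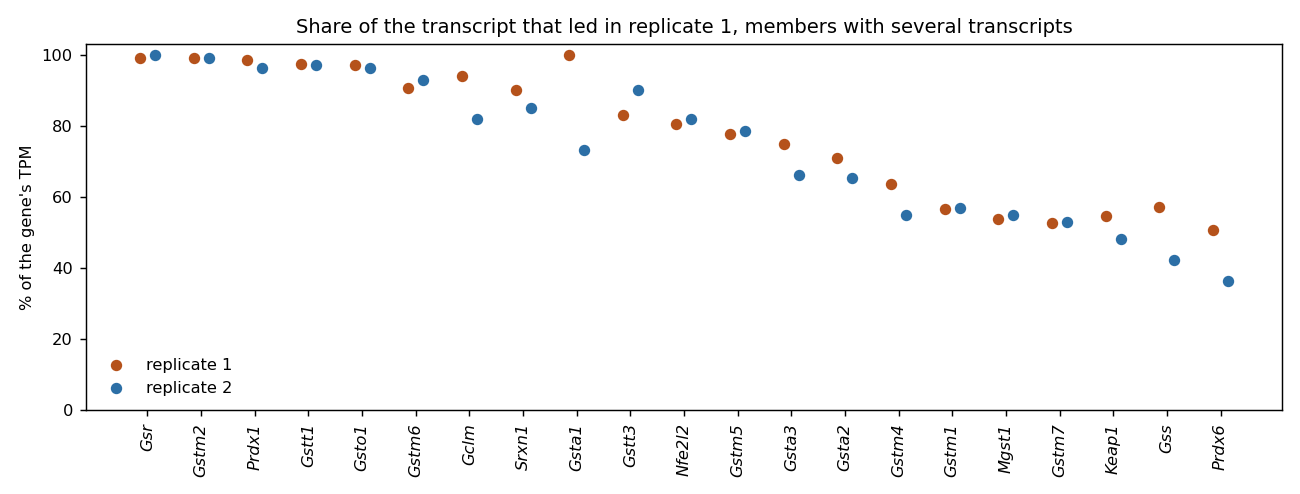
Share of the gene's TPM (vertical axis, percent) held by the transcript that led in replicate 1, for the 21 members with several transcripts, ordered by mean share; orange points are replicate 1 and blue points replicate 2. Most pairs lie close together, and Gsta1, Gss and Prdx6 are the widest, with 57.0% in replicate 1 and 42.2% in replicate 2 for Gss.

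Promoter sequences of 29 members, 36 starts in all, were matched in RefSeq (GRCm38.p6) and searched on both strands over the 250 bases before each start. Gsta4, Gclc, Gstt2, Prdx6 and Gsr were not matched. The antioxidant response element core TGACNNNGC was found in 9 of 36 member promoters, against 10.2% of 32851 promoters. The genes were G6pdx, Gclm, Gsta3, Gstm5, Gstm7, Mgst1, Nfe2l2, Prdx1 and Sod1. The second form TGAGNNNGC was found in 5 of 36 (13.9%), against 14.4% of all, in Gstm5, Gstp1, Gstp2, Gstt1 and Srxn1. The AP-1 motif TGANTCA, whose letters overlap the element core in some genes, was found in 6 of 36 (16.7%) against 6.75% of all, and the GC box GGGCGG in 20 of 36 (55.6%) against 32.7% of all. Several of the genes come from clusters of related sequence, a match is only a run of letters, and no factor binding was measured.

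The 4 promoters below belong to the 2 most abundant transferases, to Prdx1 and to the ligase modifier subunit Gclm, and each holds 1 match to TGACNNNGC, in capitals. They are Mgst1 at chr6:138140277-138140526, Gsta3 at chr1:21240335-21240584, Prdx1 at chr4:116685349-116685598 and Gclm at chr3:122245307-122245556, all on the plus strand. The Mgst1 and Prdx1 windows reach past the GENCODE gene starts, which lie before the RefSeq starts used here. The match begins 56 bases before the RefSeq start in Mgst1, 121 in Gsta3, 133 in Prdx1 and 134 in Gclm. In Mgst1, Prdx1 and Gclm it lies on the opposite strand and so reads as GCNNNGTCA, and in Prdx1 it overlaps an AP-1 motif.
Mgst1: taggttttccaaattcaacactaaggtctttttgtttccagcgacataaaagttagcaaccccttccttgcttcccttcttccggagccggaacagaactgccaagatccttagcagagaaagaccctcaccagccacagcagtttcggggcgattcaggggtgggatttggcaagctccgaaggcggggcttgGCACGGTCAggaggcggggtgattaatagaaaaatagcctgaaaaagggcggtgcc
Gsta3: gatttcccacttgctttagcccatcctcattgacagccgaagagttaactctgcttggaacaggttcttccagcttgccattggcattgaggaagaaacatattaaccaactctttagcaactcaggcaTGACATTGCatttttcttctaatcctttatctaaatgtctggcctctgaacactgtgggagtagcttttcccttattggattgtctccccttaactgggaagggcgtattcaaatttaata
Prdx1: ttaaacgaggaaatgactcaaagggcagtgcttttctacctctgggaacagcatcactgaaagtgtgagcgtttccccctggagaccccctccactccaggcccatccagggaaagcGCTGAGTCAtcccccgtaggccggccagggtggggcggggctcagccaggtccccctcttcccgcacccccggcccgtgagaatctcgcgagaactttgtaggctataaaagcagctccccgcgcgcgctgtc
Gclm: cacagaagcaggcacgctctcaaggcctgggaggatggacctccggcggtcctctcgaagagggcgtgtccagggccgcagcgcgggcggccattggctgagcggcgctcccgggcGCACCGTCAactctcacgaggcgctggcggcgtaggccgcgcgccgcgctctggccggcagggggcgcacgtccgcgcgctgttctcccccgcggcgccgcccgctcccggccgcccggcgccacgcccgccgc
For Mgst1 a second listed start held no match. The genes that hold this motif spanned a wide range of levels, between Mgst1 at 1202 TPM and G6pdx at 0.472 TPM on average, and Nqo1 and Keap1 held no match to either form in these windows.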

How the data were processed

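The authors quantified each library separately on the mm10 assembly with GENCODE M4, per the deposited notes. The sources used here name neither aligner nor quantifier. The deposited files hold expected counts, which divide reads shared by several genes, TPM over all features, FPKM, and transcript shares in percent. The signal columns deposited as interval bounds were not used. The deposited posterior SD of each count is cited where reads are shared.

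Symbols, types and coordinates came from GENCODE M21, same assembly, for 42462 of 43346 gene identifiers. TPM was rescaled without spike-ins. Ratios used expected counts scaled by edgeR 4.0.16 (TMM factors 0.950 in replicate 1 and 1.05 in replicate 2, estimated from rounded counts), plus 0.5 CPM. They covered genes with a mean of 1 TPM and 10 counts, and over 2-fold was counted as apart. The procedure was tested on simulated counts with less spread than these libraries, which cannot show how often a 2-fold call errs here. Classes were summed by TPM and count. Coding sequences were aligned globally, and promoter motifs were sought as exact letters. The libraries' counts differed beyond sampling noise (chi-square over its degrees of freedom 182), so they do not look like 1 library deposited again, which does not show that they came from separate animals. No p-values were computed, since 1 group of 2 libraries allows none. All members were named, and of other lists the 3 highest genes and any over 2-fold apart could be. Members and lists were chosen with earlier results of these data known. Alternatives covered thresholds, scalings (DESeq2 1.42.0 size factors among them), pseudocounts, filters and leaving out each library, and a GC and length correction was added after seeing the data.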

Additional observations from a re-analysis of the deposited data

How the results depend on the processing

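No paired analysis was possible because both libraries belong to 1 group. Of 89 alternative values, 48 stayed within the stated tolerance and 41 moved. The tolerance was 1.5 times for counts, 1 SD between libraries for levels and the robust SD of all gene ratios, 0.293, for medians. No class median was over 2-fold apart by TMM (the most extreme was -0.77, for pi), so no reversal of such a difference could be found. A further 20 alternative values, class levels and transcript shares with 1 library left out, lie within 1 SD by construction and show nothing of stability. With 1 library left out, the percent of endogenous TPM moved by more than 1.5 times from its mean for mu (0.00933 to 0.0220), pi (0.00537 to 0.0132) and synthesis (0.00347 to 0.00702). Members detected numbered 31, and 17 at 10 TPM in both libraries. Members over 2-fold apart numbered 2, against 7 by the ratio of deposited TPM (Gclm, Gss, Gsta1, Gsta2, Gstm1, Gstm3 and Gstp1), where 8.02% of all genes were, 5 by spike-in total, where 3.30% were, and 0 among the 21 members with a mean of 10 TPM, where 3.50% of 1686 genes were 2-fold apart; relative to the median of all genes, the TPM and spike-in scalings gave 2, Gsta1 and Gstm3. Spike-in scaling placed the median of all genes at -0.27 and total counts at -0.11. Class median ratios followed the scaling: by deposited TPM they were -0.86 for alpha, -0.85 for mu, -1.30 for pi, -0.016 for theta, -0.54 for kappa and omega, -0.37 for microsomal, -0.99 for synthesis, -0.72 for NRF2 and KEAP1 and -0.36 for antioxidant enzymes, and by spike-in total -0.63, -0.64, -1.09, 0.21, -0.32, -0.20, -0.73, -0.48 and -0.14 in that order. Relative to the median of all genes, 8 of the 9 class medians kept their direction in 7 settings, the microsomal class being the exception (-0.04 to 0.12). The count scalings among these settings agree largely by construction, since subtracting the median removes the constant by which they differ. The TPM ratio differs from them beyond a constant almost only by effective length. The microsomal class turned only with the GC and length correction. Class levels as a percent of endogenous TPM, of counts and of protein-coding TPM were 0.0308, 0.105 and 0.218 for alpha, 0.0157, 0.0413 and 0.106 for mu, 0.00931, 0.0159 and 0.0625 for pi, 0.0105, 0.0348 and 0.0753 for theta, 0.00552, 0.0143 and 0.0385 for kappa and omega, 0.121, 0.202 and 0.872 for microsomal, 0.00524, 0.0465 and 0.0357 for synthesis, 0.000859, 0.00688 and 0.00592 for NRF2 and KEAP1, and 0.0357, 0.151 and 0.251 for antioxidant enzymes, the denominators differing by construction. The median share of the leading transcript was 79.6% by TPM and 86.3% by counts. Depth limits statements on Mgst2 and Gstp2, and intervals cover counting error only.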
